A study of Homo sapiens with 9 samples.

Results

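The ZFP36, Regnase and Roquin genes encode RNA-binding proteins that shorten the life of cytokine and other immune mRNAs, and their own mRNAs were followed here through the first 12 h of T-cell activation. The 9 genes, of 19569 in the count table, were taken by symbol: ZFP36, ZFP36L1 and ZFP36L2 (the ZFP36 family), ZC3H12A, ZC3H12B, ZC3H12C and ZC3H12D (the Regnase family), and RC3H1 and RC3H2 (Roquin-1 and Roquin-2). All 9 were found. The cells were Jurkat Clone E6-1, an established line of human leukaemic T lymphoblasts, in 9 libraries of 3 groups with 3 replicates each. Control cells were not activated (0 h), and the others were collected 5 h or 12 h after activation on plates coated with anti-CD3 antibody (10 µg/mL) with soluble anti-CD28 antibody (5 µg/mL) in the medium. The labels call the replicates biological but name no separate cultures, so the p-values rest on the spread among 3 libraries a group, and part of that spread may be technical. No untreated cells cultured for 5 h or 12 h are among the groups, so activation and time in culture cannot be told apart, and less mRNA per cell cannot be told apart from fewer cells that carry it.

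The ZFP36 proteins bind AU-rich elements in 3′ untranslated regions through tandem CCCH zinc fingers and recruit the CCR4-NOT deadenylase, which removes the poly(A) tail. Regnase-1, the product of ZC3H12A, is an endonuclease that cuts stem-loops in mRNAs that are being translated, with the helicase UPF1. Roquins bind similar stem-loops through their ROQ domain and recruit deadenylase and decapping factors. In T cells all 3 families are known to restrain cytokine and costimulatory receptor mRNAs, and signalling from the T-cell receptor is known to inactivate the proteins, by phosphorylation of ZFP36 and by cleavage of Regnase-1 and Roquins by the protease MALT1.

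The sequences these proteins read are shown first, because the ZFP36-family mRNAs hold the letters that their own proteins are known to bind. The 7-base core TATTTAT and the 9-base form TTATTTATT were searched on the mRNA strand in the longest 3′ UTR (GENCODE release 29, GRCh38) of transcripts with a coding sequence of at least 0.9 of the gene's longest. A 9-base match contains a 7-base match, and 7-base matches may overlap. The core occurred in 34.1% of 11945 UTRs of tested genes and the 9-base form in 9.18%. Windows of 29 bases with the most core matches follow, 5′ to 3′ in DNA letters, with each core match in capitals.
ZFP36, chr19:39409189-39409217, plus strand: cttTATTTATgacgacttTATTTATtcta
ZFP36L1, chr14:68788077-68788105, minus strand: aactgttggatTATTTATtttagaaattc
ZFP36L2, chr2:43223448-43223476, minus strand: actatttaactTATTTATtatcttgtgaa
TNF, chr6:31578001-31578029, plus strand: TATTTATTATTTATTTATTATTTATTTAT
IL2, chr4:122451542-122451570, minus strand: cactTATTTATcccaaaaTATTTATtatt
CSF2, chr5:132076075-132076103, plus strand: taaaaTATTTATTTATTTATTTATttaag

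Each of the 3 ZFP36-family UTRs held 3 core matches and 1 match to the 9-base form. At least as many core matches were found in 1.17% of 1449 UTRs of like length (ratio of the shorter to the longer at least 0.8) to that of ZFP36 (713 bases). For ZFP36L1 (1871 bases) the share was 4.21% of 1759 UTRs, and for ZFP36L2 (1917 bases) 4.61% of 1777. The cytokine mRNAs known as ZFP36 targets were denser in the core, with 8 matches in 799 bases for TNF, 7 in 318 bases for CSF2 and 4 in 282 bases for IL2. Among the other members, RC3H2 held 5 core matches, ZC3H12C 5 and RC3H1 2, numbers reached by 5.14%, 8.04% and 52.8% of UTRs of like length. The ZC3H12A UTR (768 bases) held 0, where 22.0% of UTRs of like length held at least 1. ZC3H12B (4678 bases) and ZC3H12D (3888 bases) also held 0, against 70.2% and 63.8%.

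The stem of the decay element that Roquin reads in TNF fits the letters TTCNNNGAA, which were searched the same way and occurred in 38.5% of all searched UTRs. The TNF match and a match in Roquin-1's own mRNA are shown with the match in capitals.
TNF, chr6:31578100-31578128, plus strand: cagacatgttTTCCGTGAAaacggagctg
RC3H1, chr1:173938449-173938477, minus strand: tttgtttttgTTCTGTGAAtgaactttat
RC3H1 held 4 such matches in 7507 bases and RC3H2 5 in 5071 bases, lengths at which 94.6% and 82.1% of UTRs held at least 1. A match of these letters is a description of the sequence and was not tested for folding or binding.

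Library totals ran from 4222258 to 9359187 counts, with 12 h replicate 1 the lowest. All 8 T-cell markers were tested, and their summed level was 4680 to 5520 CPM (counts per 1000000 counts of the library, scaled by TMM) at 0 h, 4520 to 5300 at 5 h and 4480 to 5210 at 12 h. Within this sum single T-cell markers moved. At 0 h, 5 h and 12 h CD5 averaged 239, 732 and 628 CPM, CD3G 744, 356 and 337, and CD7 270, 128 and 88.0. CD3D, CD3E, CD247, LCK and CD2 changed by smaller factors. Each marker set of monocytes, NK cells, epithelium and fibroblasts, and red cells, taken separately, summed to at most 5.92 CPM in any library. Of 4 B-cell markers only CD79A was above 0.1 CPM on average (177, 101 and 142 CPM), while MS4A1 and PAX5 were near 0. Replicates of a group differed by more than sampling noise (chi-square over degrees of freedom 2.57 to 7.51), so each library counted as 1 replicate.

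Activation was followed by a rise of 6 of the 9 mRNAs and a fall of 1. Calls used edgeR's quasi-likelihood test with Benjamini-Hochberg adjustment and a threshold of 0.05 over the 12036 genes with enough counts, among them 8 of the 9 members. Of these 8, 7 were called at 5 h against 0 h and 7 at 12 h against 0 h, in either direction, beside 49.7% and 51.1% of all tested genes, and 6 at 12 h against 5 h, beside 36.1%. The counts called against 0 h include ZC3H12C, which had 1 count over the 0 h group. It passed the filter on low counts only through the activated libraries, so its rise is a description. At 5 h against 0 h, ZFP36, ZFP36L1, ZC3H12A, ZC3H12C, RC3H1 and RC3H2 were higher and ZFP36L2 was lower, where 24.9% of all tested genes were called higher and 24.8% lower. At 12 h against 0 h the same 6 were higher and ZFP36L2 lower, beside 26.3% and 24.8% of all genes. From 5 h to 12 h, 5 of the members fell and ZFP36L2 rose, beside 18.0% of all genes called lower and 18.1% higher. Those that fell in this last contrast were ZFP36, ZFP36L1, ZC3H12A, RC3H1 and RC3H2, all still above 0 h. The comparisons with 0 h share the 0 h libraries.

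The libraries of the groups compared did not overlap in CPM for 7 of the 8 tested members at 5 h against 0 h, beside 58.6% of all tested genes. The count was 7 of 8 at 12 h against 0 h (56.2% of all genes) and 6 of 8 at 12 h against 5 h (44.9%). The median log2 fold change of the 8 was 0.94 at 5 h and 0.57 at 12 h, beside 0.00 for all genes in both, and 1 of the 8, ZC3H12C, passed the filter on low counts only through the activated libraries.

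**Figure D1:**
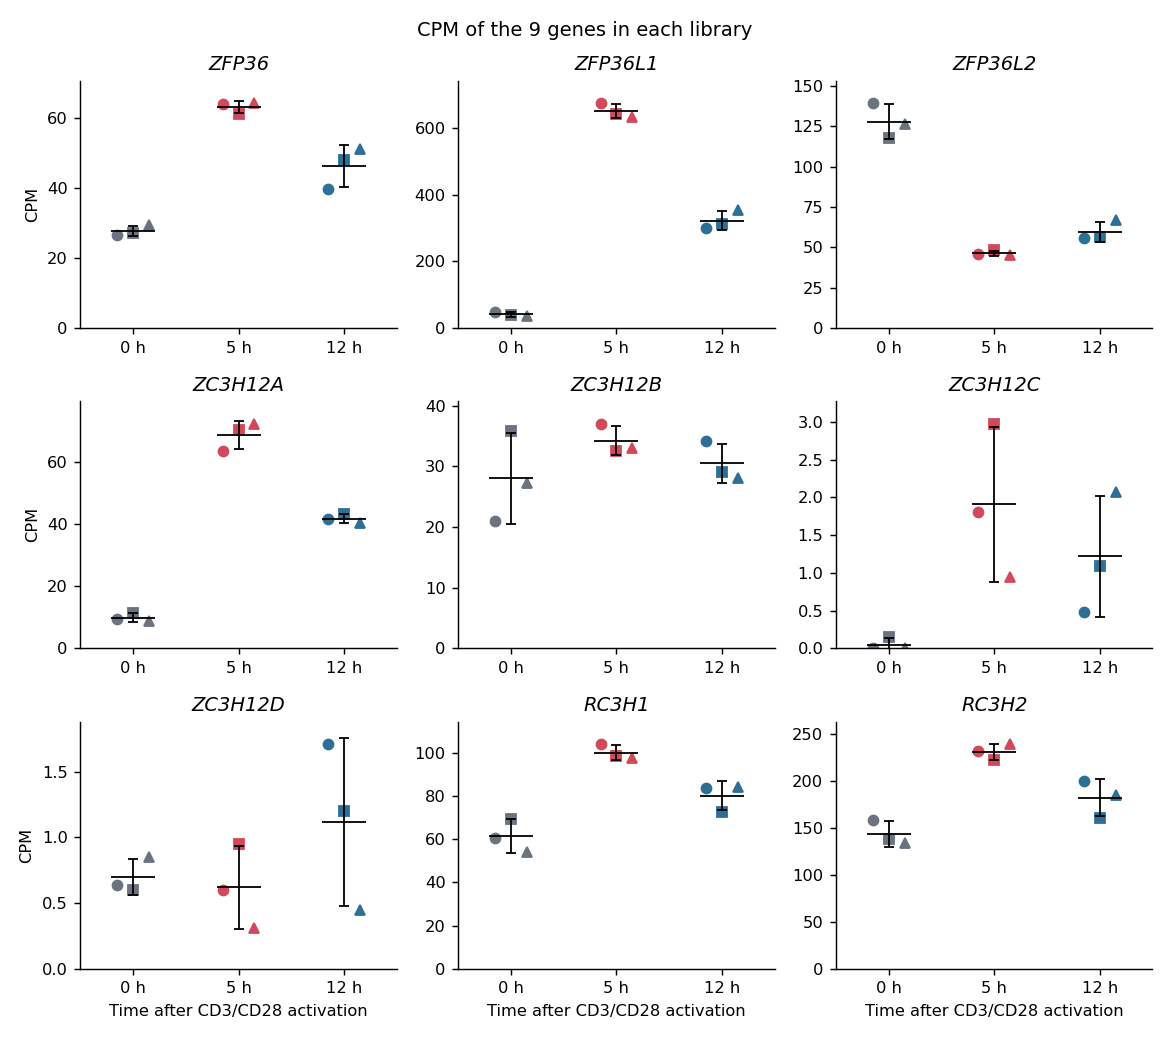
CPM (y axis, from 0, a separate scale per gene) of the 9 genes at 0 h, 5 h and 12 h (x axis); circles, squares and triangles are replicates 1, 2 and 3, and bars are the mean ± SD (n = 3). ZFP36L1 rises from 40.4 to 651 CPM at 5 h, ZFP36L2 falls from 128 to 46.3 CPM, and ZC3H12D stays at or below 1.71 CPM in every library.

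ZFP36L1 rose most in CPM among the members and became the leading mRNA of the ZFP36 family. It encodes BRF1, a ZFP36 paralogue with a known part in lymphocyte development and quiescence (chromosome 14, 68787660 to 68796253, minus strand). Its level was 48.1, 37.8 and 35.4 CPM in the 0 h libraries, 675, 644 and 635 CPM at 5 h, and 301, 312 and 355 CPM at 12 h. Every activated library lay above every 0 h library, and every 12 h library below every 5 h library. The log2 fold change was 4.01 ± 0.12 (SE, 16.1-fold) at 5 h (edgeR adjusted p = 7.38e-17), rank 88 of the 12036 tested genes from the highest. At 12 h it was 3.00 ± 0.11 (7.98-fold, edgeR adjusted p = 1.21e-14), and from 5 h to 12 h the level fell by 1.01 ± 0.10 on the log2 scale (edgeR adjusted p = 2.15e-07).

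ZFP36L2, the paralogue that led the family in non-activated cells, went the other way (chromosome 2, 43222402 to 43226609, minus strand). It had 139, 118 and 127 CPM at 0 h, 45.7, 48.1 and 45.1 CPM at 5 h, and 55.9, 56.1 and 66.8 CPM at 12 h. All 6 activated libraries were below the 0 h libraries, and the 12 h libraries lay above those at 5 h. The log2 fold change was -1.46 ± 0.10 at 5 h (edgeR adjusted p = 1.46e-10), rank 323 from the lowest, and -1.10 ± 0.10 at 12 h (edgeR adjusted p = 1.22e-08). The partial return from 5 h to 12 h was 0.37 ± 0.10 (edgeR adjusted p = 0.00967). Without 12 h replicate 3, its highest library at that time, the return was 0.28 and not called (edgeR adjusted p = 0.066).

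ZFP36 itself, which encodes tristetraprolin, the founding member and an immediate-early gene in many cells, rose by a smaller factor (chromosome 19, 39406813 to 39409412, plus strand). Its levels were 26.7, 27.2 and 29.5 CPM at 0 h, 64.0, 61.2 and 64.2 CPM at 5 h, and 39.8, 48.1 and 51.2 CPM at 12 h. The 3 groups did not overlap, with 5 h highest. The log2 fold change was 1.18 ± 0.11 at 5 h (2.27-fold, edgeR adjusted p = 2.00e-08) and 0.75 ± 0.11 at 12 h (edgeR adjusted p = 1.37e-05), with a fall of 0.43 ± 0.11 between them (edgeR adjusted p = 0.00362).

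**Figure D2:**
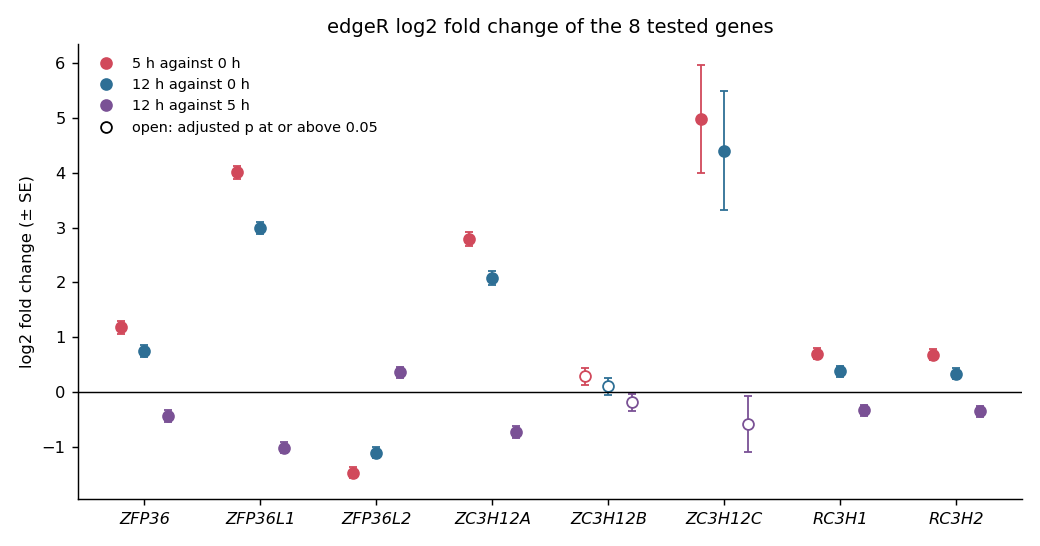
edgeR log2 fold change (y axis, bars ± SE, 3 libraries a group) of the 8 tested genes (x axis) for 5 h against 0 h, 12 h against 0 h and 12 h against 5 h; filled points were called and open points were not. ZFP36L2 is the gene with filled points below 0 against 0 h (-1.46 and -1.10), and the bars of ZC3H12C, whose fitted values depend on the prior count because it had 1 count at 0 h, are the widest.

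In the Regnase family, ZC3H12A rose several-fold and ZC3H12B did not pass the test. ZC3H12A encodes Regnase-1, which is known to hold back T-cell effector mRNAs (chromosome 1, 37474552 to 37484379, plus strand); 60 bases of its exons are shared with the microRNA gene MIR6732, and no other member shares exon sequence with another annotated gene. It stood at 9.46, 11.5 and 8.78 CPM at 0 h, 63.5, 70.3 and 72.2 CPM at 5 h, and 41.5, 43.2 and 40.4 CPM at 12 h. The groups did not overlap and 5 h was highest. The log2 fold change was 2.80 ± 0.13 at 5 h (6.95-fold, edgeR adjusted p = 1.32e-13, rank 155 from the highest) and 2.08 ± 0.13 at 12 h (4.23-fold, edgeR adjusted p = 5.25e-11). Between 5 h and 12 h it fell by 0.72 ± 0.11 (edgeR adjusted p = 3.95e-05).

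ZC3H12B is the X-linked Regnase gene (65366638 to 65507887, plus strand). Its levels were 21.0, 35.9 and 27.3 CPM at 0 h, 37.0, 32.6 and 33.1 CPM at 5 h, and 34.2, 29.1 and 28.1 CPM at 12 h. The 0 h libraries spread from 21.0 to 35.9 CPM, and all groups overlapped. Its log2 fold change was 0.29 at 5 h (95% interval -0.02 to 0.61, edgeR adjusted p = 0.114) and 0.11 at 12 h (-0.21 to 0.43, edgeR adjusted p = 0.56). From 5 h to 12 h it was -0.18 (-0.50 to 0.14). These intervals leave room for a rise of up to 0.61 at 5 h, and without 0 h replicate 2 the 5 h value was 0.49 and was called (edgeR adjusted p = 0.011).

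ZC3H12C and ZC3H12D, which encode Regnase-3 and Regnase-4, were near the limit of detection. ZC3H12C (chromosome 11, 110093361 to 110171841, plus strand) had 0, 1 and 0 counts at 0 h, 12, 22 and 6 counts at 5 h, and 2, 10 and 14 counts at 12 h. All activated libraries had more counts than the single count at 0 h, but their levels differed several-fold within a group. The ratio to 0 h, of the group's summed counts over its summed scaled library sizes, was 44.5 at 5 h (95% counting interval 7.53 to 1800; edgeR adjusted p = 1.11e-04) and 29.5 at 12 h (4.84 to 1210; edgeR adjusted p = 8.50e-04). Without 0 h replicate 2, which held the single 0 h count, the fitted log2 fold change was 6.78 at 5 h and 6.20 at 12 h in place of 4.98 and 4.397, and these fitted values depend on the prior count. The 12 h and 5 h groups overlapped, and the contrast between them was not called (edgeR adjusted p = 0.389).
ZC3H12D (chromosome 6, 149446795 to 149485061, minus strand) had 5, 4 and 7 counts at 0 h, 4, 7 and 2 at 5 h, and 7, 11 and 3 at 12 h. It did not pass the filter, and all groups overlapped. The ratio to 0 h was 0.903 (0.40 to 2.0) at 5 h and 1.49 (0.74 to 3.05) at 12 h, so at this depth no difference was detectable, and changes within these bounds remain possible. The intervals cover counting error only.

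Both Roquin mRNAs rose by similar factors. RC3H1 (chromosome 1, 173931214 to 174022297, minus strand) encodes Roquin-1, mutated in the sanroque mouse strain with lupus-like disease. It had 60.7, 69.5 and 53.9 CPM at 0 h, 104, 98.4 and 97.5 CPM at 5 h, and 83.7, 72.6 and 84.2 CPM at 12 h. The 3 groups did not overlap. The log2 fold change was 0.71 ± 0.10 at 5 h (1.63-fold, edgeR adjusted p = 8.04e-06) and 0.38 ± 0.10 at 12 h (edgeR adjusted p = 0.00403).

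RC3H2 (chromosome 9, 122844556 to 122905341, minus strand), which encodes the paralogue Roquin-2, had 159, 138 and 133 CPM at 0 h, 232, 222 and 239 CPM at 5 h, and 200.4, 161 and 185 CPM at 12 h. Here too no groups overlapped, although 12 h replicate 2 was within 3 CPM of the highest 0 h library. Its log2 fold change was 0.69 ± 0.10 at 5 h (1.61-fold, edgeR adjusted p = 5.21e-06) and 0.34 ± 0.10 at 12 h (edgeR adjusted p = 0.0058). From 5 h to 12 h RC3H1 changed by -0.32 (edgeR adjusted p = 0.0171) and RC3H2 by -0.35 (edgeR adjusted p = 0.00768). Both of these calls rested on 12 h replicate 2: without it they were -0.25 (edgeR adjusted p = 0.102) and -0.26 (edgeR adjusted p = 0.0606). That of RC3H1 was also lost without 5 h replicate 1 (-0.29, edgeR adjusted p = 0.0612).

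To compare levels between genes, CPM was divided by the exon length of each gene (CPM per kb). This length joins the exons of all annotated transcripts and can exceed that of the mRNA present. The order between genes and the family shares depend on this choice of length. At 0 h the order was led by ZFP36L2 at 34.6 ± 2.93 CPM per kb (SD, n = 3), followed by ZFP36 (13.8 ± 0.744), RC3H2 (12.4 ± 1.17), ZFP36L1 (7.83 ± 1.31) and RC3H1 (5.33 ± 0.679). ZC3H12B (3.58 ± 0.956) and ZC3H12A (3.18 ± 0.455) came next, and ZC3H12D and ZC3H12C were last at 0.103 and 0.00513. Libraries of ZFP36 overlapped with those of RC3H2, and libraries of ZC3H12B with those of ZC3H12A, so neither pair can be ordered.

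At 5 h ZFP36L1 led at 126 ± 4.09 CPM per kb, above 98.3% of tested genes, and ZFP36 was at 31.4 ± 0.841. ZC3H12A (22.0 ± 1.48) and RC3H2 (20.0 ± 0.747) overlapped, ahead of ZFP36L2 (12.5 ± 0.429), RC3H1 (8.68 ± 0.303) and ZC3H12B (4.37 ± 0.309). At 12 h ZFP36L1 led still at 62.5 ± 5.60, then ZFP36 (23.1 ± 2.94), with ZFP36L2 (16.1 ± 1.68) and RC3H2 (15.8 ± 1.72) overlapping and ZC3H12A at 13.4 ± 0.445. ZC3H12C and ZC3H12D stayed under 0.2 CPM per kb on average at both times and overlapped with each other.

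Within the ZFP36 family the makeup turned over. ZFP36L2 made up 61.4% ± 1.04 (SD, n = 3) of the summed CPM per kb at 0 h, 7.37% ± 0.340 at 5 h and 15.9% ± 0.520 at 12 h. ZFP36L1 went from 13.9% ± 1.58 to 74.2% ± 0.575 and then 61.5% ± 0.933. ZFP36 took 24.7% ± 2.30, 18.5% ± 0.559 and 22.6% ± 1.39. The sum of the 3 rose from 56.3 ± 3.81 to 170.2 ± 4.26 CPM per kb at 5 h and was 102 ± 9.81 at 12 h.

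ZC3H12A made up 46.7% ± 4.81 of the Regnase family at 0 h, 82.5% ± 1.99 at 5 h and 76.2% ± 1.89 at 12 h, while ZC3H12B went from 51.7% ± 4.83 to 16.4% ± 1.91 and 22.2% ± 1.86. In the Roquin pair RC3H1 made up 30.1% ± 3.12, 30.3% ± 1.08 and 30.7% ± 1.01. In 24 comparisons of shares, the exact two-sided permutation p was 0.1, the lowest value possible with 3 libraries a group, for ZFP36L1, ZFP36L2, ZC3H12A and ZC3H12B in all 3 contrasts. It gave p = 0.9, 0.8 and 0.5 for RC3H1 at 5 h against 0 h, 12 h against 0 h and 12 h against 5 h (exact, 3 libraries a group). The differences for RC3H1 were 0.209, 0.624 and 0.415 percentage points, and their sign depended on which library was left out.

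**Figure D3:**
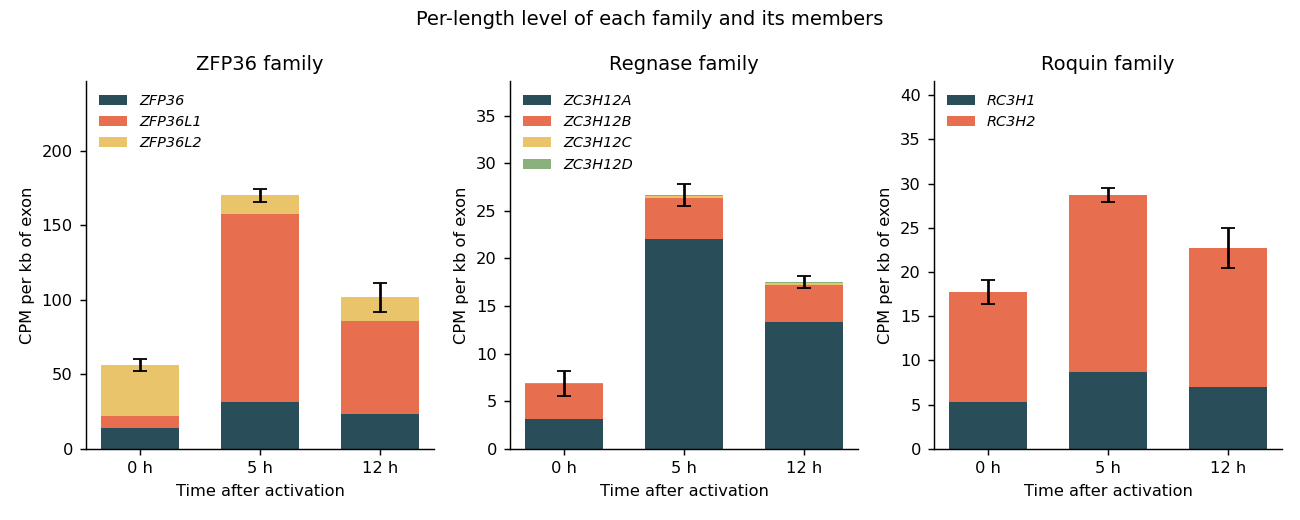
Mean CPM per kb of exon (y axis, stacked by gene, from 0) of the ZFP36, Regnase and Roquin families at 0 h, 5 h and 12 h (x axis); bars on each stack are the SD of the family sum (n = 3). The ZFP36 stack is mostly ZFP36L2 at 0 h (61.4%) and mostly ZFP36L1 at 5 h (74.2%).

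The genes whose profile over the 9 libraries was nearest to each member, by Euclidean distance between centred log2 CPM, differed from member to member. For ZFP36L1 they included BACH2 (distance 0.60, Pearson r = 0.99 over 9 libraries) and BIRC3, which had 773 and 708 CPM at 5 h. Those of ZC3H12A were ADAM19 (0.33), RUNX3 and BCL2L11, and those of ZFP36 were DDX10 (0.28), PWP2 and RRP12. The genes nearest ZFP36L2 were ELF4 (0.23), SHMT1 and RHOU, which were lower after activation as well. For RC3H1 they were PPP2R2A, KPNA1 and AZI2, and for RC3H2 SFXN1, CRYBG1 and EFR3A. ZC3H12C, with its few counts, had no gene nearer than DMBT1 at 1.12. The libraries share their depth and their groups, so these distances describe the profiles and carry no test.

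The mRNAs of the machinery that the 3 families recruit moved by smaller amounts than ZFP36L1 or ZC3H12A. Of 11 CCR4-NOT subunits, 4 rose at 5 h and 0 fell (also 0 at an unadjusted p under 0.05 and in DESeq2 and limma), beside 24.9% and 24.8% of all tested genes, with a median log2 fold change of 0.21 beside 0.00 for all genes. These were CNOT10 (0.40), CNOT4 (0.37), CNOT2 (0.32) and the scaffold CNOT1 (0.30), and 1 was called without 5 h replicate 1. At 12 h, 3 of the 11 fell, CNOT10 (-0.44), CNOT11 (-0.37) and the catalytic subunit CNOT7 (-0.27), while CNOT3 rose (0.37), beside 24.8% of all tested genes lower and 26.3% higher. Without 12 h replicate 1, or without 12 h replicate 2, 2 of the 11 were called higher. CNOT10 thus stood at 58.8 ± 4.08 CPM at 0 h, 77.5 ± 6.88 at 5 h and 43.0 ± 3.64 at 12 h (SD, n = 3).

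Of 10 factors of decapping and 5′-to-3′ decay, 5 rose at 5 h and 0 fell (also 0 at an unadjusted p under 0.05 and in DESeq2 and limma), where 24.9% and 24.8% of all genes did, with a median of 0.30. The exonuclease gene XRN1 rose from 71.9 ± 5.33 to 125 ± 14.3 CPM at 5 h (log2 0.80) and 153 ± 11.2 CPM at 12 h (log2 1.09). The decapping activator PATL1 (0.77), DCP1A (0.56) and EDC3 (0.40) also rose at 5 h. At 12 h 5 were higher and 2 lower, beside 26.3% and 24.8% of all genes, with a median of 0.21: the decapping enzyme DCP2 stood at 260 ± 38.6 CPM against 138 ± 13.2 at 0 h (log2 0.91), DCP1B rose (0.42) and LSM1 fell (-0.61).

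Genes whose products act on the members went both ways, with 7 of 19 higher and 3 lower at 5 h (median 0.15), and 5 higher and 6 lower at 12 h (median -0.09). Of all tested genes 24.9% were higher and 24.8% lower at 5 h and 26.3% and 24.8% at 12 h, so the share of these 19 called higher at 12 h was near that of all genes. MALT1, the protease that cleaves Regnase-1 and Roquins, rose from 33.8 ± 2.05 to 50.3 ± 2.84 CPM at 5 h (log2 0.57, edgeR adjusted p = 1.99e-04). MAPKAPK2, the kinase that phosphorylates ZFP36, rose at both times (0.54 and 0.58), and BTRC, the ligase subunit that marks Regnase-1 for degradation, at 5 h (0.57). NUFIP2, a cofactor of Roquin, was at 280 ± 22.4, 300.1 ± 13 and 557 ± 50.9 CPM, a rise of 0.99 at 12 h (edgeR adjusted p = 2.16e-08). YWHAQ, a 14-3-3 protein of the kind that binds phosphorylated ZFP36, fell by 0.71 at 12 h.

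Among 12 tested of 13 other regulators of mRNA stability, 4 rose and 4 fell at 5 h (median 0.00), and 3 rose and 5 fell at 12 h (median 0.10). The shares over all tested genes were 24.9% higher and 24.8% lower at 5 h and 26.3% and 24.8% at 12 h, close to 3 of 12 for the rise at 12 h. ARID5A, which is known to protect mRNAs from Regnase-1, fell from 34.3 ± 3.63 to 12.6 ± 2.16 CPM at 5 h (log2 -1.45, edgeR adjusted p = 3.95e-07) and stood at 13.3 ± 3.70 at 12 h (log2 -1.32). HNRNPD, the AU-rich element binder AUF1, fell by 0.67 at 12 h and TIA1, a translational repressor, by 0.42. The Pumilio gene PUM2 (0.38) and the nuclease gene N4BP1 (0.43), a relative of Regnase, rose at 5 h, and CELF1 (0.47) at 12 h. Without 0 h replicate 1, 2 of the 12 were called lower at 5 h and 3 at 12 h. NYNRIN did not pass the filter.

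The mRNAs known as targets of these proteins were led by cytokine and receptor genes that rose by 5 h, many of them from few or no counts at 0 h. From general knowledge of the 3 families, 35 targets were listed, some under more than 1 family, and 25 were tested. Of these 25, 10 had under 10 counts in every 0 h library (CCL3, CSF2, CXCL8, FOS, IFNG, IL2, IL2RA, IL3, IRF4 and TNF) and passed the filter through activated libraries, so counts over the tested targets are a description. At 5 h 19 were higher and 3 lower, at 12 h 16 and 4, and from 5 h to 12 h 3 were higher and 17 lower, with a median of -1.60 beside 0.01 for all genes. In limma on the deposited log2 values, which leave out genes with a 0 in any library, 12 were higher at 5 h, 11 at 12 h, and 11 lower from 5 h to 12 h. The other 15 targets had 10 or more counts in at least 1 library at 0 h. Of these 15, 9 were higher and 3 lower at 5 h, 9 and 4 at 12 h, and 3 higher and 8 lower from 5 h to 12 h. As a background for the 25 and the 15, 24.9% of all tested genes were called higher and 24.8% lower at 5 h. These shares were 26.3% and 24.8% at 12 h against 0 h, and 18.1% and 18.0% from 5 h to 12 h. Among the 15, the 3 and 4 lower against 0 h, and the 3 higher from 5 h to 12 h, were near them. Both a rise by 5 h and a fall from 5 h to 12 h were called for 7 of these 15 (CDKN1A, ICOS, IER3, LIF, MYC, NFKBID and REL). LIF and CDKN1A, with 18 and 36 counts over the 0 h group, also passed the filter through activated libraries. The counts over the 15 are therefore a description too. CCL2, CXCL1, IL12B, IL1B and IL6 had no count in any library.

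Of 22 ZFP36-family targets 16 were tested, and 13 were higher and 3 lower at 5 h, 10 and 3 at 12 h. Beside them, 24.9% of all tested genes were higher and 24.8% lower at 5 h, and 26.3% and 24.8% at 12 h. Of the 16, 8 had under 10 counts in every 0 h library and passed the filter through activated libraries. LIF and CDKN1A, with 18 and 36 counts over the 0 h group, are also among the 16 and passed the filter that way. IL2, the T-cell growth factor, had 0.0905 ± 0.0796, 260.1 ± 38.1 and 15.1 ± 0.740 CPM at 0 h, 5 h and 12 h. IL3 and CSF2, which encode growth factors of myeloid cells, had no count at 0 h and were at least 366-fold and 362-fold higher at 5 h and at least 39.7-fold and 23.1-fold higher at 12 h. CCL3, a chemokine gene also without a count at 0 h, was at least 42.6-fold higher at 5 h. The interferon gene IFNG, with 3 counts at 0 h, had a ratio of 117 (95% counting interval 39.8 to 573) at 5 h and 16.6 (5.33 to 83.7) at 12 h. TNF, with the densest run of cores among the windows above, went from 0.778 ± 0.277 to 4.28 ± 0.463 CPM and then 0.276 ± 0.147 CPM. From 5 h to 12 h the log2 fold change was -4.11 for IL2, -3.96 for CSF2, -3.77 for TNF and -3.20 for IL3, beside -1.01 for ZFP36L1 and -0.43 for ZFP36.

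Of 16 Regnase targets 9 were tested, with 7 higher and 0 lower at 5 h (also 0 at an unadjusted p under 0.05 and in DESeq2 and limma), and 6 higher and 1 lower at 12 h. The shares over all tested genes were 24.9% and 24.8% at 5 h, and 26.3% and 24.8% at 12 h. Of the 9, 3 had under 10 counts in every 0 h library and passed the filter through activated libraries. IL2RA, without a count at 0 h, was at 339 ± 7.60 CPM at 5 h and 294 ± 30.7 CPM at 12 h, at least 2560-fold and 2270-fold higher. TNFRSF4, which encodes the costimulatory receptor OX40, rose from 1.86 ± 0.622 to 51.0 ± 14.5 CPM at 5 h and was at 48.8 ± 4.34 at 12 h (log2 4.74 and 4.69). These 2 were not called between 5 h and 12 h (-0.20, edgeR adjusted p = 0.0923, and -0.06, edgeR adjusted p = 0.815). ICOS, a costimulatory receptor listed for both Regnase and Roquin, went from 2.83 ± 1.02 to 46.1 ± 3.67 and 12.8 ± 1.39 CPM.

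Of 11 Roquin targets 9 were tested, with 8 higher and 0 lower at 5 h and 7 higher and 0 lower at 12 h. At an unadjusted p under 0.05 the counts lower were 0 and 1, in DESeq2 0 and 0, and in limma 0 and 1. Over all tested genes 24.9% were higher and 24.8% lower at 5 h, and 26.3% and 24.8% at 12 h. Of the 9 Roquin targets, 3 had under 10 counts in every 0 h library and passed the filter through activated libraries. IER3, an early response gene, rose from 27.4 ± 1.24 to 446 ± 30.1 CPM (log2 4.03) and stood at 117 ± 10.3 CPM at 12 h (log2 2.10). ICOS, TNFRSF4 and IFNG were the other leading genes of this list.

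**Figure D4:**
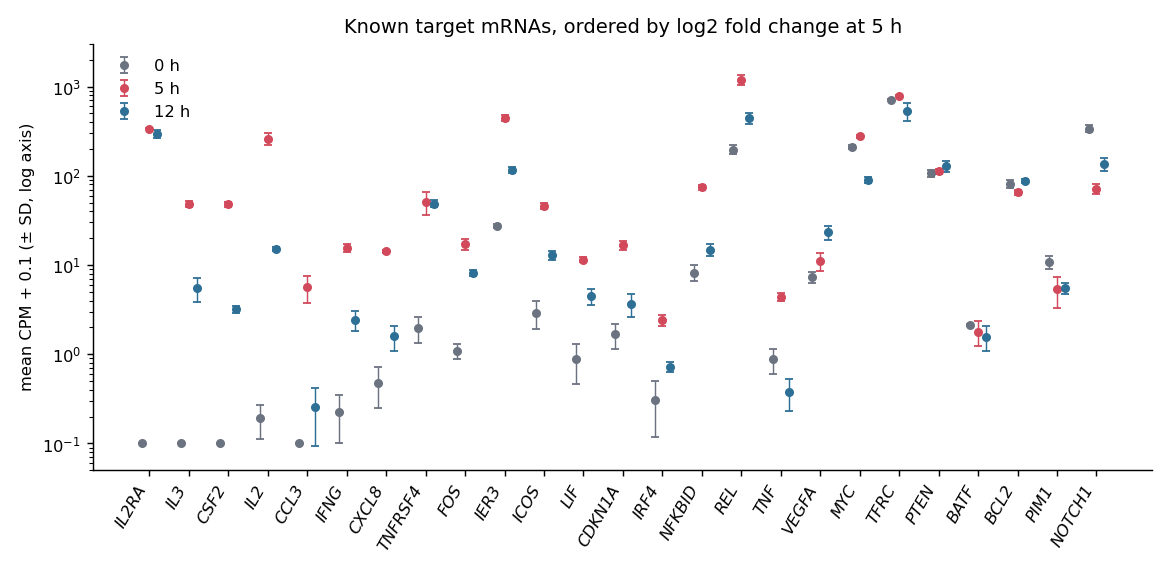
Mean CPM + 0.1 (y axis, log scale; bars ± SD, n = 3) of the 25 tested target mRNAs (x axis, in order of log2 fold change at 5 h) in the 3 groups; a point at 0.1 is a mean of 0 CPM. IL2 and IER3 peak at 5 h, IL2RA (339 and 294 CPM) and TNFRSF4 (51.0 and 48.8 CPM) are close together at 5 h and 12 h, and NOTCH1 lies lower in both activated groups than at 0 h.

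Across all tested genes, mRNAs with the ZFP36 core in the longest annotated 3′ UTR were called higher after activation in a larger share the more matches they held. At 5 h, 22.0% of 7677 genes with no match were higher and 26.8% lower. With 1 match these shares were 28.4% and 22.5% of 2431 genes, with 2 matches 32.1% and 18.8% of 1001, and with 3 or more 34.2% and 20.7% of 836. From 5 h to 12 h, 19.0% were higher and 15.9% lower without a match, and 17.8% and 22.5% with 3 or more. The median log2 fold changes were small, -0.039 without a match and 0.111 with 3 or more at 5 h, and 0.033 and -0.053 from 5 h to 12 h. The median UTR length rose with the matches, from 952 to 4572 bases, and its part in these shares was not tested. With the 9-base form in place of the core, the median at 5 h was -0.008 for 10794 genes without a match. It was 0.102 for 870 genes with 1 match and 0.12 for 188 with 2. In these bins 24.4%, 31.3% and 30.9% were higher, and 25.3%, 19.8% and 20.7% lower. The 93 genes with 3 or more matches had a median of -0.034 at 5 h, and 25.8% were higher and 28.0% lower.

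**Figure D5:**
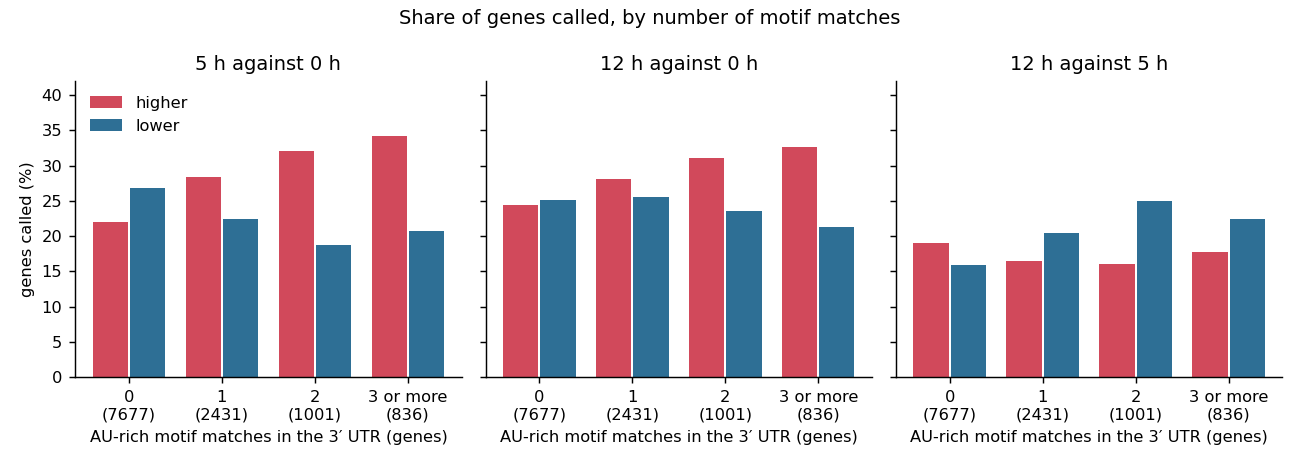
Share of tested genes called higher or lower (y axis, percent, from 0) by number of 7-base core matches in the longest annotated 3′ UTR (x axis, number of genes in brackets) for the 3 contrasts. At 5 h the share higher goes from 22.0% without a match to 34.2% with 3 or more.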

How the data were processed

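The authors deposited whole-number counts per Ensembl gene, and the submitters' processing notes name cutadapt, RSEM, DESeq2 and GRCh38.p13, with no role or version; RSEM estimates counts, so these may be rounded. The aligner, the annotation release and any strand setting were not given in the sources used here. The authors also deposited log2 values, equal to log2 of the count over 1 factor per library, plus 1, for the 12692 genes counted in all 9 libraries; they served 1 alternative only. Counts were tested with edgeR 4.0.16 (R 4.3.3): TMM, filterByExpr, 1 quasi-likelihood fit of all 9 libraries, Benjamini-Hochberg adjustment over 12036 genes. In simulated counts for 5 h against 0 h (11898 genes), it recovered 46 of 50 genes changed 1.5-fold and 50 of 50 changed 2-fold, with 13 false calls among 11698. The changed genes were not drawn from those of lowest mean level, and most genes were left unchanged. These rates therefore do not cover genes with few counts, or data with 49.7% of genes called. Exon lengths, UTRs and coordinates (1-based) come from GENCODE release 29 (GRCh38). A count of 0 was read as up to 3 counts over the group for lower bounds on folds.

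The members and lists were chosen with earlier results of these data known. Named were the 9 members, up to 4 called genes per list and time with the largest change against 0 h, and the 3 nearest profiles per called member. Some genes that this rule names are not reported here. TNF, NOTCH1, NYNRIN, CD79A, the single T-cell markers and the target genes listed at low or no counts were named after their values were seen. The count over the other 15 targets was added after seeing the data. The search for the letters TTCNNNGAA was added after the files were seen. Intervals (95%) and floors cover counting error only, except the edgeR intervals of ZC3H12B, which use its standard error. Alternatives were DESeq2 1.42.0, RLE factors, no filter, 6 libraries, a replicate block, limma 3.58.1 on the log2 values, and leaving out each library.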

Additional observations from a re-analysis of the deposited data

Results flagged for a closer look

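For 6 of the 8 tested genes the change from 0 h differed between 5 h and 12 h by the test of 12 h against 5 h (edgeR, 3 libraries a group), beside 36.1% of all tested genes. The log2 difference was -1.01 for ZFP36L1, -0.72 for ZC3H12A, -0.43 for ZFP36, -0.35 for RC3H2 and -0.32 for RC3H1, all smaller rises at 12 h. It was 0.37 for ZFP36L2, a smaller fall at 12 h. The calls of ZFP36L2, RC3H1 and RC3H2 were lost when 1 library was left out (highest edgeR adjusted p = 0.066, 0.102 and 0.0606).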

How the results depend on the processing

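The members called at 5 h and 12 h against 0 h kept their direction and call under the alternatives that gave them a value. ZC3H12C did not pass the filter in the 6-library fits against 0 h and has no log2 value, so 5 of the members were called higher there and in limma. Leaving out 1 library moved the members called from 5 h to 12 h between 0 and 1 higher and between 3 and 5 lower. With 1 library left out, the difference in the family share of RC3H1 ran from -0.953 to 1.98 points at 5 h against 0 h. It ran from -0.538 to 2.40 at 12 h against 0 h and from -0.206 to 0.994 at 12 h against 5 h. For ZC3H12C at 12 h against 5 h the share difference ran from -0.283 to 0.211 points. The log2 fold change of ZC3H12B at 12 h against 0 h ranged from -0.057 without 0 h replicate 1 to 0.323 without 0 h replicate 2, called in neither. For genes with 3 or more motif matches, the 9-base form gave medians of -0.034 at 5 h and -0.04 at 12 h in place of 0.111 and 0.077; the cause was not tested. In limma, 8 of the ZFP36 targets were called higher at 5 h, 6 higher at 12 h and 7 lower from 5 h to 12 h, and 4 of the Regnase targets were called higher at 5 h, since genes with a count of 0 are not in that table.

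With the replicate block, 2989 genes were higher and 2992 lower at 5 h (3001 and 2984 without it), 3149 and 3027 at 12 h, and 2156 and 2129 from 5 h to 12 h, and no call of a member changed. Correlations of deviations were -0.143 to 0.163 for libraries with the same number and -0.20 to 0.187 for others. In both other groups, 0 of the 9 libraries matched their own number best. This check showed no pairing by number, but with 3 libraries a group a weak pairing could go unseen. Depth limits ZC3H12C and ZC3H12D most, with at most 40 counts in a group.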
